A study of Mus musculus with 9 samples.

Results

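The microRNAs described here are the rows of the known mouse microRNA table whose number is 5000 or more, with 3 rows (miR-5126, miR-6240 and miR-6538) set apart by the rule. The rule is stated in names, but it was chosen with earlier results of these data known. It takes 312 of the 1064 known microRNAs, or 29.3%, in a table that also lists 105 predicted ones, 1169 in all. Each of the 312 had at least 1 count in some library, so what follows describes detected microRNAs only. At the edge of the rule, miR-5099 is the member with the lowest number and held 85 counts, while miR-3971, the nearest row below it, held 3.

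Small RNA was sequenced in 9 libraries of vesicles from mouse serum, collected with a precipitation reagent that pellets small extracellular vesicles. Chow-fed wild-type mice (chow-fed WT), wild-type mice given a high fat diet (HFD-fed WT) and mice on the same diet with adipose-specific overexpression of Sirt3 (HFD-fed Sirt3 AKI) gave 3 libraries each. The series title speaks of male mice, and Sirt3 is a mitochondrial deacetylase. The labels do not state the promoter that drives Sirt3 in adipose tissue, the ages, or whether replicates came from separate animals, so p-values measure the spread between these libraries. The library names of HFD-fed WT carry a Sirt3 knock-in code (SIRT3CKI) although their genotype label is wild type. Those of HFD-fed Sirt3 AKI carry SIRT3CKIcr and those of chow-fed WT carry WT. Sirt3 mRNA is not measured in small RNA, so the genotype could not be checked here. By their batch label, 7 libraries belong together, and HFD-fed Sirt3 AKI replicates 2 and 3 form another batch.

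MicroRNAs are short RNAs that guide Argonaute proteins to messenger RNAs, and they pair mainly through the seed, bases 2 to 8 of the mature strand. The miRBase database numbers them in the order of their discovery, so high numbers belong to entries that came late, most of them from deep sequencing of small RNA. Many of these are mirtrons, hairpins released by splicing and debranching of a short intron in place of Drosha cleavage. In a tailed mirtron, 1 end of the hairpin lies at a splice site and the other end is trimmed.

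The mature sequences below, from RefSeq on build GRCm38.p6, belong to the 3 microRNAs that passed a test between groups and to the next most abundant ones with a sequence entry, with the seed in capitals.
miR-5123: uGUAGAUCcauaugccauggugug
miR-5100: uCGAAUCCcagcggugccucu
miR-5113: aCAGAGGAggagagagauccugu
miR-8114: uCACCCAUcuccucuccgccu
miR-6239: uAGCGUUGgaucacucggug
miR-6236: gCCGUCGCcggcagucagg
miR-8112: uCUCCGCCaccuccaccgca
miR-7036b-5p: aCGCGGGGuucucuguggaagc
None of these 8 shares its seed with another listed here.

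Both arms of miR-6967 are shown because their hairpin lies at the 3′ end of an intron, the most frequent position among the members.
miR-6967-5p: cAGGGAGGgauaaagaccagu
miR-6967-3p: uCAUCUUUaucucuccccag
The 3p strand closes with ag, the bases that end most introns.

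On GRCm38.p6, miR-5123 lies at chr4:40850057-40850080 on the minus strand, in an intron of B4galt1, a galactosyltransferase gene. The locus of miR-5100 is chr11:60728698-60728718 on the plus strand, in an intron of Mief2. That of miR-5113 is chr15:80940049-80940071 on the plus strand, in the 3′ UTR of Tnrc6b, which encodes a scaffold protein of the microRNA silencing complex. The abundant miR-8114 maps to chr1:153899989-153900009 on the plus strand, where it overlaps an annotated 5′ UTR of Glul, the glutamine synthetase gene. The 2 members outside annotated genes are miR-6239, at chr14:117953768-117953787 on the minus strand, and miR-6236, at chr9:110281353-110281371 on the plus strand. The 5′ UTR of Krcc1 holds miR-8112 at chr6:71271745-71271764 on the plus strand. At chr5:34574151-34574172 on the plus strand, miR-7036b-5p overlaps a 5′ UTR of Add1, which encodes a protein of the membrane skeleton. For miR-8114 and miR-7036b-5p, no exact match of the whole sequence was found in an annotated transcript, so these are given as overlaps only. The 5p arm of miR-6967 lies at chr17:26920967-26920987 on the plus strand, in an intron of the kinesin gene Kifc5b. RefSeq lists 2 loci for it, so its reads cannot be assigned to 1 of them.

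Among the late-annotated microRNAs, hairpins at intron ends prevailed, while few of the lower-number ones lay there. Of 209 precursors that could be placed, 121 (57.9%) ended within 10 nucleotides of the 3′ end of an intron on their own strand. A further 10 spanned both ends of an intron and 5 lay at a 5′ end, which brings those at any intron end to 136 (65.1%). Among microRNAs with lower numbers, 23 of 395 placed precursors (5.82%) lay at an intron end. The remaining high-number precursors comprised 22 in exons, 32 inside introns and 19 outside annotated genes. The last class leaves out miR-6239 and miR-6236, whose mature loci lie outside genes but whose hairpins could not be placed.

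Summed counts were distributed in the opposite way, though few members made up much of them. The 168 mature microRNAs at intron ends held 1053 counts over all libraries, or 25.7% of the counts of placed members, with a median of 3 counts each. The 26 in exons held 1942 counts, or 47.5%, with a median of 6.5. Most of these exon counts came from miR-8114, with 935, and miR-5113, with 434. A filter on low counts, described with the group comparisons, kept 1 microRNA at an intron end and 7 in exons. Members without a placed hairpin, among them miR-6239 with 328 counts and miR-6236 with 324, are not in these shares. No test was made between these positions.

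**Figure D1:**
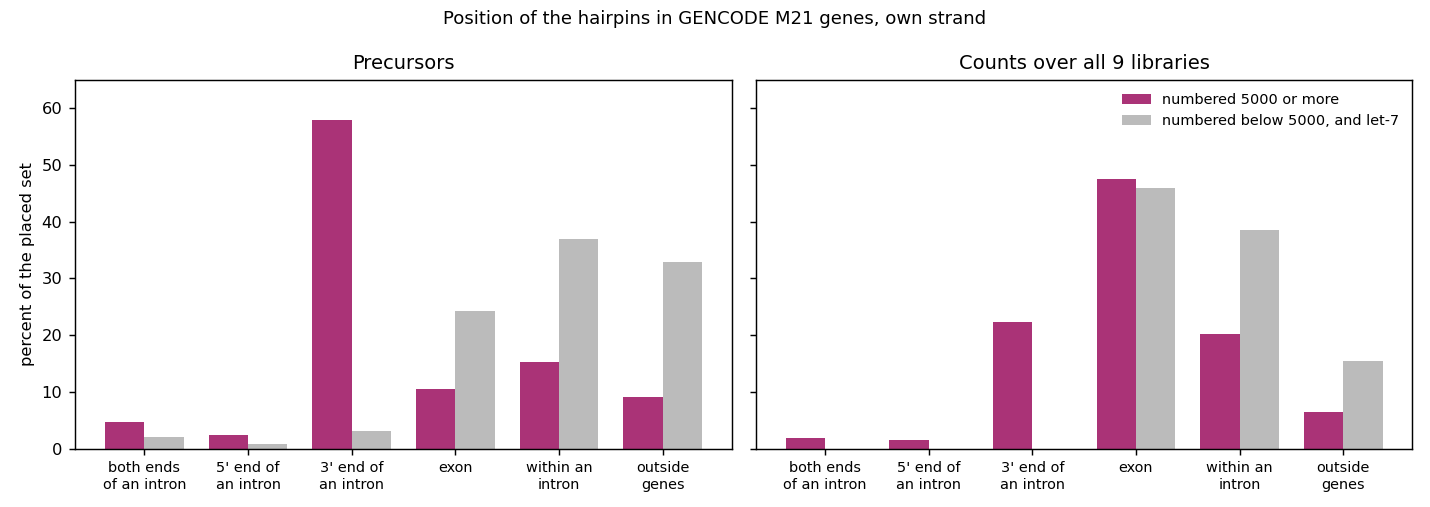
Percent of placed precursors (left) and of placed counts over all 9 libraries (right) by position of the hairpin in annotated genes, for microRNAs numbered 5000 or more (dark bars) and for those with lower numbers or let-7 names (grey bars). The 3′ end of an intron holds 57.9% of the high-number precursors but 22.3% of their counts, and exons hold 10.5% and 47.5%. Most of the exon counts are those of miR-8114 and miR-5113.

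The 3′ ends of the sequences are partly set by these positions, since most introns end in AG. Of 75 members on the 3p arm of a hairpin at a 3′ intron end, 54 (72%) ended in AG, against 1 of 34 (2.94%) of the 3p members in exons, inside introns or outside genes and 27 of 312 (8.65%) of the lower-number 3p microRNAs. A RefSeq sequence was found for 272 of the 312 members (87.2%) and for 641 of the 749 lower-number microRNAs. Median GC content was 54.5% in the members and 47.8% in the others, and 34.9% against 16.7% had a GC content of at least 60%. The 5p members had a median G content of 40.9%, against 27.3% in the lower-number 5p microRNAs. The 3p members had a median pyrimidine content of 69.6%, against 54.5% in the lower-number 3p ones. These base contents were taken over all positions together.

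Seeds were diverse. The 272 sequences held 265 distinct seeds, and 7 seeds were shared by a pair of members each, as CUGGAGA by miR-5114 and miR-7094b-2-5p. A seed of a lower-number microRNA recurred in 12 members. These include miR-6967-5p, with AGGGAGG like miR-1943-5p, and miR-7670-3p, with UCCCUUU like miR-204-5p and miR-211-5p, but miR-7670-3p held only 8 counts.

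Some mature sequences also occur in other transcripts. An exact match in a GENCODE M21 transcript other than the microRNA gene itself was found for 40 of 272 members (14.7%) and for 15.8% of the lower-number microRNAs with a sequence. In 18 members, with 806 counts, the match lay in a protein-coding transcript, among them miR-5113 in Tnrc6b, miR-8112 in Krcc1, miR-5114 in Scd2 and miR-7653-5p in Tlcd1. The ribosomal RNA precursor and the nuclear tRNAs were not searched here, so a member without a match, such as miR-5100, miR-6239 or miR-6236, was not checked against them. A snoRNA or scaRNA matched 3 members, with 18 counts, of which miR-5121 in Snord33 held 13. For the members with a match, reads of the microRNA and fragments of the host transcript cannot be told apart in the counts. The search took whole matches only. It therefore leaves out miR-8114, with 935 counts, and miR-7036b-5p, with 109, whose loci overlap exons of Glul and Add1. Whether their counts include fragments of these hosts was not tested.

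The members were sparse in serum vesicles. All 312 together held 5473 counts over the 9 libraries, or 0.0397% of all counts, with a median of 4 counts per member against 57 per lower-number microRNA. A count in every library was found for 13 members and for 348 of the 749 lower-number microRNAs. A single library held all the counts of 116 members, against 84 of the lower-number ones. Fewer than 10 counts over all libraries were found for 235 members, at least 20 for 43 and at least 100 for 8. The 3 rows set apart by the rule held 22347 counts, or 0.162%, more than all the members together. They were unevenly spread over the groups. With them added to the members, the mean share of counts was 1.66% in chow-fed WT, 0.0966% in HFD-fed WT and 0.135% in HFD-fed Sirt3 AKI. The group differences below leave them out.

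A few members held much of this signal. With 935 counts, miR-8114 held 17.1% of the member counts, and the 5 most abundant together held 43.1%. On the scale of normalised CPM, which are counts per 1000000 after scaling each library total by TMM, miR-8114 ranked 183 of the 414 microRNAs that entered the tests. Next came miR-5113 at rank 217, miR-6239 at 241, miR-6236 at 264 and miR-5123 at 265.

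The higher numbers were not evenly sparse. The filter kept 8 of 43 members numbered from 5000 to below 6000 (18.6%), 4 of 105 from 6000 to below 7000 (3.81%), 5 of 136 from 7000 to below 8000 (3.68%) and 4 of 28 from 8000 on (14.3%). Below 500 it kept 292 of 463 (63.1%), from 500 to below 1000 it kept 36.6%, and from 1000 to below 5000 it kept 21.4%.

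Most counts fell on members with no arm in their name, a form that miRBase uses where only 1 mature strand was listed. These 44 rows held 3405 counts, or 62.2% of the member counts, and 14 of them passed the filter. The 5 most abundant members, with 43.1% of the member counts, are all among them, so this share rests largely on few rows. The 131 rows on a 5p arm held 1332 counts and 7 passed, while the 137 on a 3p arm held 736 counts and none passed. For 60 precursors both arms were listed, with 852 counts on the 5p arms and 403 on the 3p arms. The 5p arm had more counts in 34 of them, the 3p arm in 22, and 4 were equal. Since every listed member had a count, precursors with counts on 1 arm only are not among these 60. The miR-6967 hairpin had 55 counts on the 5p and 43 on the 3p arm, while miR-7036b had 109 and 2.

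The libraries differed in depth, which bears on every statement about presence. Totals ranged from 225002 to 306974 counts in chow-fed WT, from 1953935 to 2162009 in HFD-fed WT and from 1729416 to 2973432 in HFD-fed Sirt3 AKI. Marker microRNAs of red cells (6 of 6 listed in the table, none at 0) took 36.9 to 38.9% of the counts in chow-fed WT, 51.3 to 53.8% in HFD-fed WT and 44.4 to 52.7% in HFD-fed Sirt3 AKI. Those of hepatocytes (3 of 3, none at 0) took 1.42 to 1.74%, 0.537 to 0.613% and 0.823 to 3.40%, and those of epithelium (6 of 6, none at 0) 1.43 to 1.59%, 0.327 to 0.467% and 0.665 to 1.69%. The highest hepatocyte, epithelial and brain shares of HFD-fed Sirt3 AKI were all in replicate 2. Leukocyte and platelet markers (6 of 6, none at 0) stayed between 4.65 and 5.27% in all 9 libraries. Brain markers (3 of 3, none at 0) took 0.323 to 0.402%, 0.277 to 0.330% and 0.408 to 0.890%.

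The first comparison asks how the serum vesicle microRNAs of wild-type mice on the high fat diet differ from those of chow-fed mice. More members were detected in the groups with deeper libraries. At least 1 count was found for 59, 65 and 39 members in the chow-fed WT libraries, for 130, 121 and 119 in HFD-fed WT and for 149, 136 and 121 in HFD-fed Sirt3 AKI. Within groups the number did not always follow depth, since HFD-fed Sirt3 AKI replicate 2, with 1729416 counts, had more members than replicate 3, with 2109438. With every library set to the depth of the smallest, 225002 counts, the expected numbers were 49.2, 56.0 and 39 in chow-fed WT, 40.5, 37.4 and 38.7 in HFD-fed WT and 40.4, 44.6 and 39.4 in HFD-fed Sirt3 AKI. At this equal depth, chow-fed WT had a mean of 48.1 ± 8.56 and HFD-fed WT of 38.9 ± 1.58 (SD, n = 3 each), their ranges overlapped, and the two-sided exact permutation p was 0.2. Lower-number microRNAs also had a lower mean in HFD-fed WT at equal depth, 394 against 427, without overlap (exact permutation p = 0.1). At full depth the difference in members has the other direction, with 69 more in HFD-fed WT.

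Presence in only some groups could not be read from these depths. In chow-fed WT, 198 members had 0 counts over the group, against 102 in HFD-fed WT and 76 in HFD-fed Sirt3 AKI. A count of 0 over the chow-fed WT group allows up to 3 counts, or 3.64 per 1000000, and such limits cover counting error only. Of the 198, none exceeded this limit in HFD-fed WT and 1 did in HFD-fed Sirt3 AKI. This was miR-5119, from an intron of Cdk12, with 0 counts in chow-fed WT, 4, 6 and 5 in HFD-fed WT and 5, 15 and 7 in HFD-fed Sirt3 AKI, or 3.96 per 1000000 in the last group.

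The share of all counts that fell on the members was lower in HFD-fed WT in relative terms, but this direction depends on the scaling. It was 0.0541, 0.0600 and 0.0507% in chow-fed WT, 0.0435, 0.0361 and 0.0359% in HFD-fed WT and 0.0354, 0.0467 and 0.0371% in HFD-fed Sirt3 AKI. All 3 chow-fed WT libraries lay above all 3 of HFD-fed WT. This was not particular to the members. For microRNAs numbered from 500 to below 1000 the mean share was 0.277% in HFD-fed WT against 0.358% in chow-fed WT. From 1000 to below 5000 it was 0.216 against 0.404%, while below 500 it was higher, at 89.4 against 84.4%. For the members together, the values were as follows. The mean was 0.0549% ± 0.00474 in chow-fed WT and 0.0385% ± 0.00434 in HFD-fed WT (SD, n = 3 each), a difference of -0.0164 percentage points with a two-sided exact permutation p of 0.1, the smallest that 3 against 3 libraries can give. Against TMM-scaled totals, the members summed to 421 ± 39.2 normalised CPM in chow-fed WT and 489 ± 30.5 in HFD-fed WT (SD, n = 3 each). This is the opposite direction, again without overlap and with an exact permutation p of 0.1. Red cell markers took a mean of 38.1% of all counts in the chow-fed WT libraries and of 52.8% in the HFD-fed WT ones. Without miR-486, one of these markers, in the denominator the difference in share was -0.0128 percentage points (exact permutation p = 0.1). Leaving it out raises the share in every library, so this value cannot be set directly against -0.0164. The part of the red cell or other markers was not tested. In bulk vesicle RNA, fewer vesicles from a source and fewer copies per vesicle cannot be told apart.

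**Figure D2:**
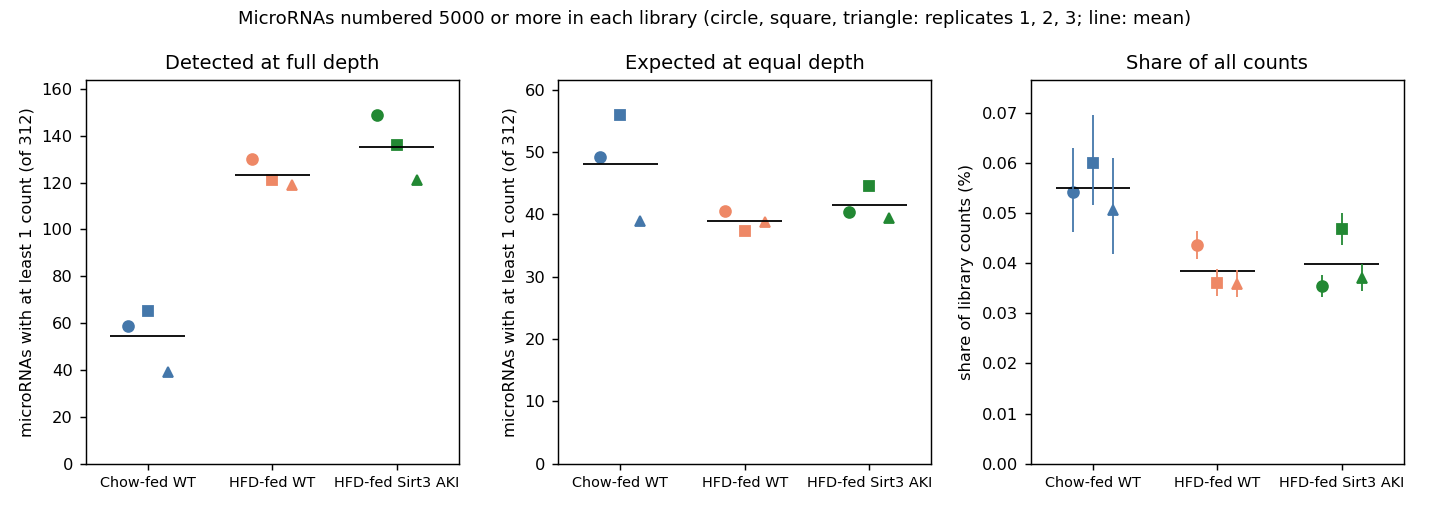
Number of members with at least 1 count at full depth (left), the number expected with every library thinned to 225002 counts (middle) and the members' share of all counts in percent (right), by group, with 1 point per library, the group mean as a line and 95% Clopper-Pearson intervals in the right panel. Full depth places HFD-fed WT and HFD-fed Sirt3 AKI far above chow-fed WT, equal depth brings them to 37.4 to 44.6 against 39 to 56.0, and the share is highest in chow-fed WT, a direction that turns on the TMM scale.

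Changes of single members were tested with edgeR on the 414 microRNAs that passed the filter on low counts, with p-values adjusted by Benjamini-Hochberg over all of them. Of the 312 members, 21 passed this filter and held 65.6% of the member counts, while the other 291 held 1881 counts and at most 55 each. A member could pass through the group in which it was high, so the 21 do not stand for all members. The fewest counts of a tested member were 38. In HFD-fed WT over chow-fed WT, 1 of the 21 rose, where 21.5% of all 414 did, and 1 fell, where 16.2% did (37.7% in either direction). An unadjusted p below 0.05 was reached by 3 of 21 members and by 188 of 414 microRNAs. The estimates were also less precise, with a median standard error (SE) of the log2 fold change of 0.71 in the members and 0.36 over all tested. The median log2 fold change was 0.17 in the members and 0.15 over all tested, and -0.55 and -0.57 when scaled by library totals alone.

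The member that rose was miR-5123, the B4galt1 intron microRNA. Its level was 7.65, 15.7 and 20.1 normalised CPM in chow-fed WT, 23.4, 31.9 and 44.5 in HFD-fed WT and 24.5, 21.2 and 30.4 in HFD-fed Sirt3 AKI. All HFD-fed WT libraries exceeded all chow-fed WT libraries, the nearest being 23.4 against 20.1. Its log2 fold change in HFD-fed WT over chow-fed WT was 1.22 (SE 0.41, edgeR adjusted p = 0.0386), from means of 14.5 ± 6.29 to 33.3 ± 10.6 (SD, n = 3 each). The call rests on the scaling, with a log2 fold change of 1.12 and an adjusted p of 0.0566 under DESeq2 size factors and 0.49 and 0.376 under library totals. It is also lost without chow-fed WT replicate 1 or 2, without HFD-fed WT replicate 2 or 3, or without HFD-fed Sirt3 AKI replicate 3. In HFD-fed Sirt3 AKI over HFD-fed WT its log2 fold change was -0.39 (SE 0.33, edgeR adjusted p = 0.502).

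The member that fell was miR-5100, from an intron of Mief2. Its level was 17.9, 23.5 and 20.1 normalised CPM in chow-fed WT, 3.34, 2.61 and 3.32 in HFD-fed WT and 0.721, 6.88 and 2.62 in HFD-fed Sirt3 AKI. The chow-fed WT libraries all lay above 17 and every other library below 7. The counts behind these levels were 7, 9 and 6, then 6, 4 and 5, then 2, 13 and 5. Its log2 fold change in HFD-fed WT over chow-fed WT was -2.69 (SE 0.71, edgeR adjusted p = 0.0116), from a mean of 20.5 ± 2.84 to 3.09 ± 0.417 (SD, n = 3 each), 6.63-fold lower. Among the 21 alternatives run, the call was lost only without chow-fed WT replicate 2, where the log2 fold change was -2.56 and the adjusted p 0.0525. In HFD-fed Sirt3 AKI over HFD-fed WT its log2 fold change was 0.07 (SE 0.71, edgeR adjusted p = 0.966), with the highest of the 6 levels in replicate 2 of HFD-fed Sirt3 AKI.

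Without overlap but without passing the test, miR-8114 stood at 71.4, 44.4 and 46.8 normalised CPM in chow-fed WT and at 127, 73.6 and 76.3 in HFD-fed WT. The gap between the groups was narrow, 71.4 against 73.6. Its log2 fold change was 0.76 (SE 0.31, edgeR adjusted p = 0.0748), and it passed the test in 5 of 21 alternatives. With an SE of 0.81, miR-7654-5p had a log2 fold change of 1.70 (edgeR adjusted p = 0.127), from 5.10, 2.61 and 0 to 12.2, 9.77 and 5.31 normalised CPM. In the other direction, miR-6238 went from 5.10, 7.83 and 13.4 to 0, 3.91 and 1.99 normalised CPM (log2 fold change -2.11, SE 1.33, edgeR adjusted p = 0.249). Including the called ones, groups did not overlap in 3 members that were higher and 2 that were lower of 21, against 30.9 and 23.9% of all 414. Of these, miR-7654-5p and miR-6238 are named only because they make up these counts, chosen after their values were seen.

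**Figure D3:**
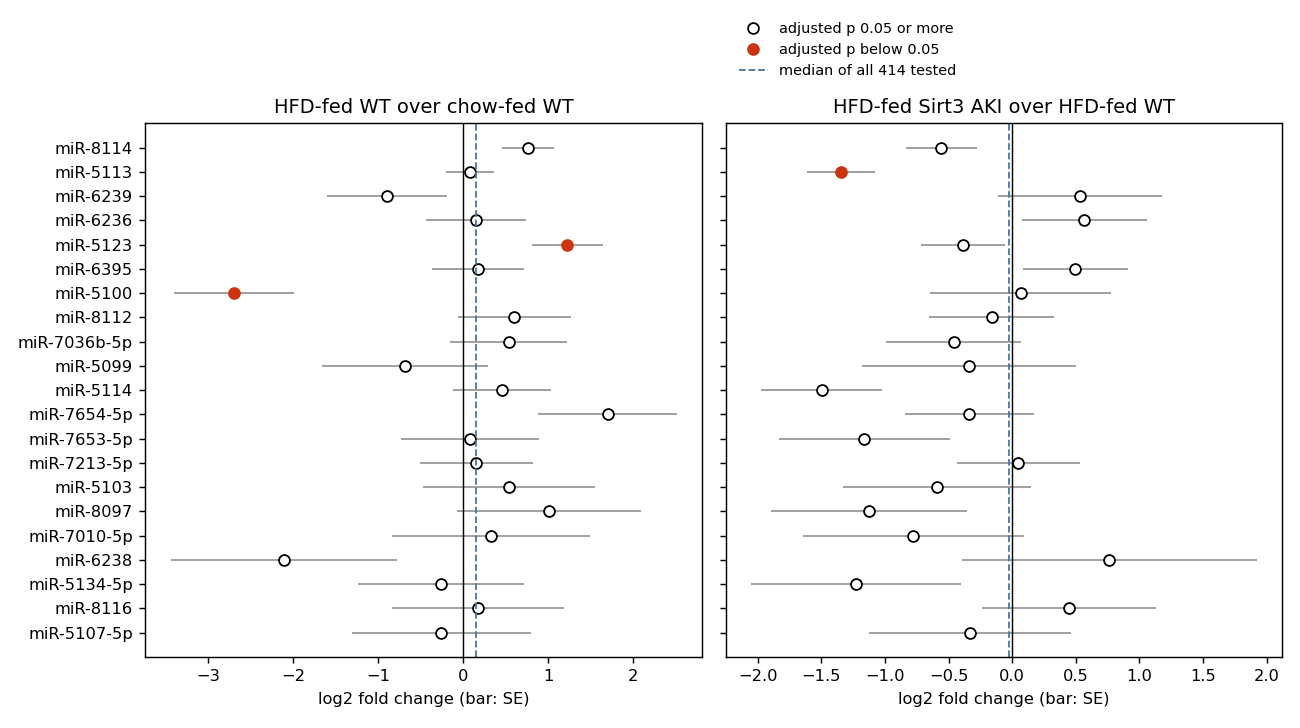
Log2 fold change with its SE (bar) of the 21 members that passed the filter, in HFD-fed WT over chow-fed WT (left) and HFD-fed Sirt3 AKI over HFD-fed WT (right), ordered by mean level. Filled points passed an edgeR adjusted p of 0.05, which are miR-5123 and miR-5100 on the left and miR-5113 on the right, and the dashed line is the median of all 414 tested.

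The second comparison asks how Sirt3 overexpression in adipose tissue changes the vesicle microRNAs of mice on the high fat diet. It shares the HFD-fed WT libraries with the first, so the values of both are given side by side and not correlated. The share of counts in the members was 0.0397% ± 0.00612 in HFD-fed Sirt3 AKI (SD, n = 3), 0.00121 percentage points above HFD-fed WT, with overlapping ranges and a two-sided exact permutation p of 0.7. This direction also turned on the TMM scale, where the sum was 405 ± 24.4 normalised CPM (SD, n = 3) against 489 in HFD-fed WT, without overlap and with an exact permutation p of 0.1. At equal depth 41.4 ± 2.74 members were expected (SD, n = 3), against 38.9 in HFD-fed WT (exact permutation p = 0.3). Lower-number microRNAs also had a higher mean, 423 against 394, without overlap (exact permutation p = 0.1).

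In this comparison no member rose, where 1.45% of all 414 did, and 1 of 21 fell, where 7.49% did (8.94% in either direction). An unadjusted p below 0.05 was reached by 2 of 21 members and by 109 of 414. Limma on TPM also called 0 members higher, as did DESeq2, which gave an adjusted p to only 5 of the 21 in this comparison. The median log2 fold change was -0.34 in the members and -0.02 over all tested, and -0.08 and 0.27 when scaled by library totals alone.

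The member that fell was miR-5113, whose sequence lies in the 3′ UTR of Tnrc6b. Its level was 43.4, 57.4 and 43.4 normalised CPM in chow-fed WT, 62.3, 50.2 and 39.8 in HFD-fed WT and 22.3, 15.9 and 21.5 in HFD-fed Sirt3 AKI. The 3 HFD-fed Sirt3 AKI libraries were the lowest of all 9. Its log2 fold change in HFD-fed Sirt3 AKI over HFD-fed WT was -1.35 (SE 0.27, edgeR adjusted p = 0.0106), from a mean of 50.8 ± 11.2 to 19.9 ± 3.51 (SD, n = 3 each), 2.55-fold lower. In HFD-fed WT over chow-fed WT the log2 fold change was 0.08 (SE 0.28, edgeR adjusted p = 0.859), a direction that turns under library totals. Among the libraries of the larger batch, where HFD-fed Sirt3 AKI has replicate 1 alone and that library is assumed to vary like the others, the log2 fold change was -1.05 with an adjusted p of 0.0822, and with a batch term it was -1.18 with 0.205. The call is also lost without HFD-fed WT replicate 1 (adjusted p = 0.0539) and in a fit of these 2 groups alone (adjusted p = 0.0603).

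**Figure D4:**
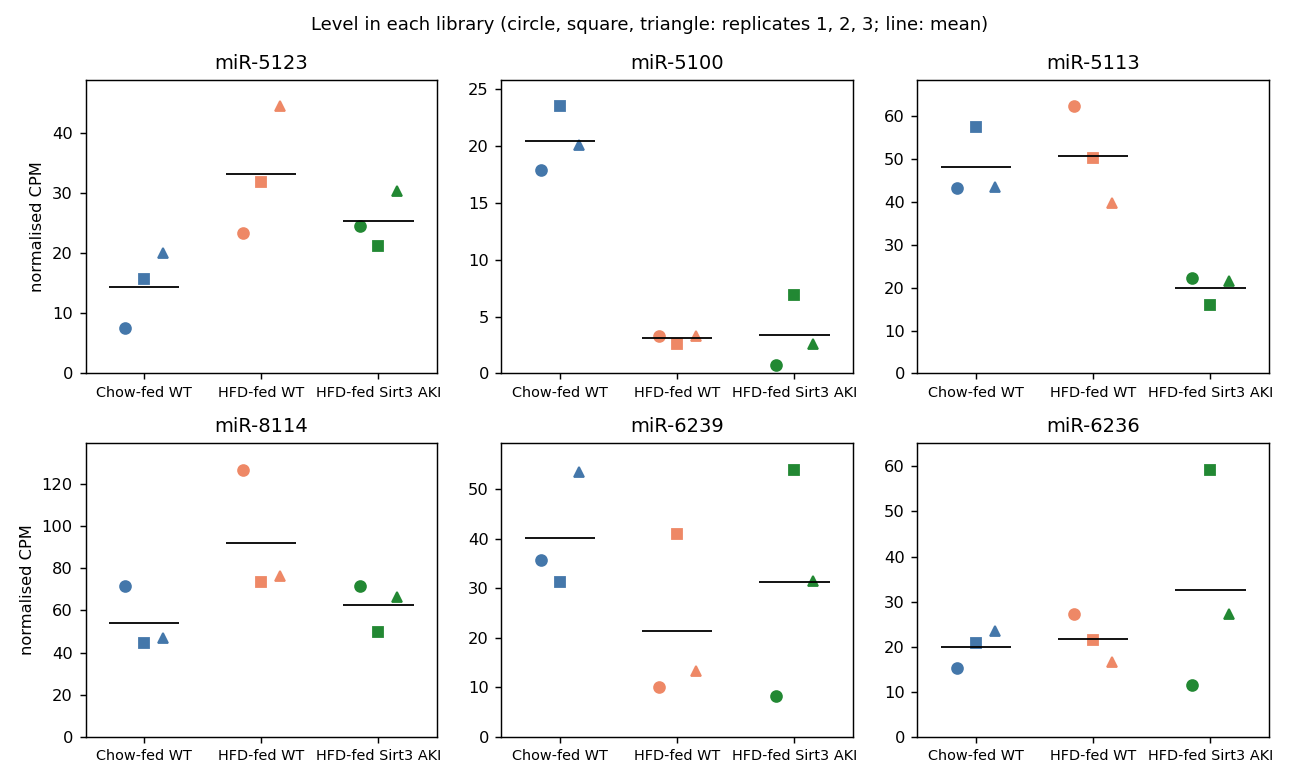
Level in normalised CPM of miR-5123, miR-5100, miR-5113, miR-8114, miR-6239 and miR-6236 in each of the 9 libraries, by group, with 1 point per library and the group mean as a line. Chow-fed WT stands apart in miR-5100 and HFD-fed Sirt3 AKI in miR-5113. On this scale HFD-fed Sirt3 AKI replicate 2 (square) is the highest library in miR-6236 and, by a narrow lead, in miR-6239.

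Groups did not overlap in 4 of 21 members that were lower in HFD-fed Sirt3 AKI, against 17.4% of all 414, and in 0 that were higher, against 8.7%. Besides miR-5113 these were miR-8114, miR-5114 and miR-7653-5p, the last pair chosen after their values were seen because they make up this count. The level of miR-5114 was 9.46, 11.1 and 14.6 normalised CPM in HFD-fed WT and 6.13, 2.12 and 3.67 in HFD-fed Sirt3 AKI. Its log2 fold change was -1.50 (SE 0.47, edgeR adjusted p = 0.0731), and the adjusted p was 0.0257 without HFD-fed Sirt3 AKI replicate 1, which leaves only the smaller batch in that group. With a batch term the log2 fold change was -0.92 (adjusted p = 0.548), and within the larger batch it was -0.78 with an adjusted p of 0.548. Its sequence also occurs in transcripts of Scd2, a stearoyl-CoA desaturase gene. For miR-7653-5p the levels were 7.79, 11.7 and 3.98 against 3.96, 3.70 and 2.62 normalised CPM (log2 fold change -1.16, SE 0.67, edgeR adjusted p = 0.296). In miR-8114 the HFD-fed Sirt3 AKI libraries stood at 71.7, 49.7 and 66.5 normalised CPM (log2 fold change -0.56, SE 0.28, edgeR adjusted p = 0.231).

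On the TMM scale, the abundant members outside annotated genes had their highest level in the same library. The level of miR-6239 was 35.7, 31.3 and 53.5 normalised CPM in chow-fed WT, 10.01, 41.0 and 13.3 in HFD-fed WT and 8.29, 54.0 and 31.4 in HFD-fed Sirt3 AKI. For miR-6236 it was 15.3, 20.9 and 23.4, then 27.3, 21.5 and 16.6, then 11.5, 59.3 and 27.2. The SD of miR-6236 was 4.14 in chow-fed WT, 5.34 in HFD-fed WT and 24.3 in HFD-fed Sirt3 AKI (n = 3 each), so that its spread was wide in the last group only. The highest value of each was in HFD-fed Sirt3 AKI replicate 2. For miR-6239 this lead was narrow, 54.0 against 53.5 in chow-fed WT replicate 3. Against library totals chow-fed WT replicate 3 was the higher of these, with 16 of 225002 counts against 102 of 1729416. HFD-fed Sirt3 AKI replicate 2 also had the highest hepatocyte and epithelial marker shares of its group, and the part of those markers was not tested. In HFD-fed Sirt3 AKI over HFD-fed WT, the log2 fold changes were 0.53 for miR-6239 (SE 0.65, edgeR adjusted p = 0.651) and 0.57 for miR-6236 (SE 0.49, edgeR adjusted p = 0.509), and without that replicate they were -0.11 and -0.18. Replicates 2 and 3 of this group form the smaller batch, and both lay above replicate 1 in each member. With a batch term the log2 fold changes were -1.35 for miR-6239 and -0.92 for miR-6236.

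The remaining abundant members did not pass the test in either comparison. The level of miR-6395 was 10.2, 5.22 and 10.03 normalised CPM in chow-fed WT, 10.6, 5.86 and 11.9 in HFD-fed WT and 14.4, 8.46 and 17.3 in HFD-fed Sirt3 AKI. In miR-8112 it was 7.65, 5.22 and 6.68, then 10.01, 5.21 and 14.6, then 6.85, 5.29 and 14.7. These ranges overlapped throughout. For miR-7036b-5p the levels were 12.8, 7.83 and 0 in chow-fed WT, 9.46, 11.1 and 11.3 in HFD-fed WT and 6.85, 4.76 and 11.5 in HFD-fed Sirt3 AKI, and its 3p arm had 2 counts in all, both in HFD-fed Sirt3 AKI replicate 2. The member with the lowest number, miR-5099, varied widely within its groups, at 20.4, 10.4 and 3.34, then 15.02, 4.56 and 1.99, then 1.08, 11.1 and 5.76 normalised CPM.

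Of the 168 members at intron ends, 1 entered the tests, miR-7010-5p from a 3′ intron end of Gucy1a1, a guanylate cyclase subunit gene, named here after its values were seen. Its log2 fold change was 0.32 in HFD-fed WT over chow-fed WT (SE 1.16, edgeR adjusted p = 0.859) and -0.78 in HFD-fed Sirt3 AKI over HFD-fed WT (SE 0.87, edgeR adjusted p = 0.619). Summed, the members at intron ends held 0.0110% ± 0.00405 of all counts in chow-fed WT, 0.00750% ± 0.00156 in HFD-fed WT and 0.00734% ± 0.000361 in HFD-fed Sirt3 AKI (SD, n = 3 each). Members at other placed positions held 0.0283% ± 0.00145, 0.0228% ± 0.00256 and 0.0206% ± 0.000988 (SD, n = 3 each). For the intron-end members the ranges overlapped, at 0.00847, 0.0157 and 0.00889% in the chow-fed WT libraries against 0.00879, 0.00577 and 0.00793% in the HFD-fed WT ones. The difference in their means was -0.00352 percentage points, and -0.00118 without chow-fed WT replicate 2. For the other positions all 3 chow-fed WT libraries, at 0.0267 to 0.0293%, lay above those of HFD-fed WT, at 0.0211 to 0.0258%, against library totals. No test was made on either class.

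Among members left out by the filter, the 5 with the most counts were miR-6967-5p, miR-8105, miR-6960-5p, miR-6967-3p and miR-5119. The 5p arm of miR-6967 had 1, 0 and 0 counts in chow-fed WT, 16, 10 and 12 in HFD-fed WT and 9, 4 and 3 in HFD-fed Sirt3 AKI. Every HFD-fed Sirt3 AKI library had fewer counts of it than every HFD-fed WT library. Per library total, HFD-fed Sirt3 AKI had 0.380 times the level of HFD-fed WT, with a 95% interval of 0.198 to 0.697 that covers counting error only. From the single count in chow-fed WT, HFD-fed WT was 5.10 times higher with a 95% counting interval of 0.862 to 207, which includes equal levels.

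The 3p arm of the same hairpin had 0, 1 and 0 counts in chow-fed WT, 8, 0 and 9 in HFD-fed WT and 12, 6 and 7 in HFD-fed Sirt3 AKI. Its ratio of HFD-fed Sirt3 AKI to HFD-fed WT was 1.33, with a 95% counting interval of 0.688 to 2.62, and whether the arms differ in this was not tested. From an intron end of Troap, miR-6960-5p had 0, 10 and 2 counts in chow-fed WT, 8, 5 and 5 in HFD-fed WT and 8, 5 and 4 in HFD-fed Sirt3 AKI, so that 1 chow-fed WT library held most of the chow counts. Outside annotated genes, miR-8105 had 0, 1 and 0, then 14, 4 and 3, then 16, 4 and 10 counts.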

How the data were processed

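Small RNA of serum vesicles was counted in 9 libraries, grouped by the labels. The authors deposited whole-number read counts per microRNA, and a TPM table whose values are those counts per 1000000 of each library total, per the file headers and values. The submitters' processing notes name Bowtie 0.12.2 and build mm8 without saying what for. How adapters were trimmed, which microRNA reference served and how reads were counted is not given in the sources used here. For the tests, all 1169 known and predicted rows entered filterByExpr with a minimum count of 10, TMM scaling and edgeR 4.0.16 in R 4.3.3, with a quasi-likelihood fit of group means over all libraries. A call is an adjusted p (Benjamini-Hochberg, 414 rows) below 0.05. Normalised CPM are counts per 1000000 of the TMM-scaled total. Differences in share and in detection have exact permutation p-values, both sides counted, and 0.1 is the lowest they can reach. Detection at equal depth is the hypergeometric expectation at 225002 counts. Intervals on shares are 95% Clopper-Pearson. Intervals and limits cover counting error only, because amplified reads with no molecular identifiers can repeat a molecule. Sequences and loci come from RefSeq on GRCm38.p6 and gene positions from GENCODE M21, which are not the authors' build, and no coordinates were carried between builds. Alternatives used DESeq2 1.42.0, limma 3.58.1 on log2 TPM, other scalings and filters, a batch term and each library left out. The edgeR step was tested on simulated counts. Members, lists and rules were chosen with earlier results of these data known. Members were named if called, among the 10 most abundant tested, among the 5 with the most counts below the filter, at 0 in 1 group with at least 20 counts in another, or the other arm of a called or abundant one.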

Additional observations from a re-analysis of the deposited data

How the results depend on the processing

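Depth limited what could be seen: chow-fed WT libraries held 225002 to 306974 counts, and 291 of the 312 members entered no test. In HFD-fed WT over chow-fed WT, the number of members called higher was 0 under DESeq2 size factors, library totals, DESeq2 and limma on TPM at both pseudocounts, 2 without the filter or with the replicate block, 3 within the larger batch, and 0 to 3 with 1 library left out. The number called lower was 2 under limma with a pseudocount of 1, 4 when the 3 rows set apart were added, and 0 to 2 with 1 library left out. In HFD-fed Sirt3 AKI over HFD-fed WT, the number called lower was 0 in a fit of the 2 groups, with a batch term and within the larger batch, and 0 to 2 with 1 library left out, and the number called higher was 0 in all 22 alternatives, although DESeq2 gave no adjusted p for 16 of the 21. Against TMM-scaled totals, an alternative chosen after seeing the data, the difference in share turned to 0.00676 percentage points in HFD-fed WT over chow-fed WT and to -0.00835 in HFD-fed Sirt3 AKI over HFD-fed WT. The latter was also -0.00313 within the larger batch and -0.00229 to 0.00372 with 1 library left out. Without thinning, detection in HFD-fed WT over chow-fed WT turned to 69 more members. The cause of these changes was not tested.

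Log2 fold changes that turned sign in HFD-fed WT over chow-fed WT were all short of the threshold. Under library totals they were -0.64 for miR-5113, -0.57 for miR-6236, -0.55 for miR-6395, -0.11 for miR-8112 and -0.18 for miR-7036b-5p. Under limma on TPM with pseudocounts of 1 and 0.1 they were -0.65 and -0.66 for miR-5113, -0.58 and -0.60 for miR-6236, -0.51 and -0.57 for miR-6395, and -0.19 and -0.22 for miR-8112. For miR-5113, DESeq2 size factors gave -0.029 and DESeq2 -0.024. With 1 library left out, values ranged from -0.071 to 0.25 for miR-5113, from -0.019 to 0.31 for miR-6236, from -0.074 to 0.42 for miR-6395 and from -1.79 to 0.029 for miR-5099. In HFD-fed Sirt3 AKI over HFD-fed WT, miR-5100 turned to -0.041 under limma with a pseudocount of 0.1, -0.099 with the replicate block, -1.97 with a batch term and -1.83 within the larger batch. With the batch term and within the larger batch, miR-6239 was at -1.35 and -1.20 and miR-6236 at -0.92 and -0.78. For miR-8112, library totals gave 0.11 and limma 0.11 and 0.13, and for miR-5099 limma with a pseudocount of 1 gave 0.036. With 1 library left out, they ranged from -0.93 to 0.61 for miR-5100, from -0.11 to 1.42 for miR-6239, from -0.18 to 0.99 for miR-6236, from -0.68 to 0.23 for miR-8112 and from -1.17 to 0.80 for miR-5099.

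The replicate numbers were shared between groups. The correlations of the deviations of same-numbered libraries ranged from -0.0803 to 0.115, which gives no sign of pairing. With 3 libraries per group this cannot show that the libraries were unpaired. The replicate block is therefore given only as above.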
